A study of Mus musculus with 2 samples.

Results

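The regions described here are gene-desert peaks, stretches of accessible chromatin that lie outside every annotated gene and more than 100 kb from every protein-coding transcription start site. They come from DNase-seq of the left cerebral cortex at an age of 10 days, in 2 females of B6CASTF1/J, a cross of C57BL/6J with the CAST/EiJ strain. Both libraries were whole tissue from untreated animals as far as the labels say, and together they formed 1 group of 2 biological replicates, so nothing was compared between conditions. The labels number the animals separately but give both the same donor identifier, so the spread between the libraries may be technical as well as between animals. A shared peak is a peak in the smaller peak list of replicate 1 that overlapped a peak in the smaller list of replicate 2. Of the 50856 shared peaks, 5252 (10.3%) had their midpoint in such a desert, by the GENCODE M21 annotation of all transcripts. The rule used position and presence in both libraries, and used neither signal, footprints nor sequence.

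DNase I cuts DNA where nucleosomes are displaced, so clusters of cuts mark promoters, enhancers, insulators and other accessible elements. Elements far from any promoter are usually enhancers or architectural sites. Enhancers can act on a gene across large distances through looping of the chromatin fibre, and CTCF, a zinc-finger protein that halts cohesin, anchors many such loops. Deserts around developmental genes are known in mammals to hold long-range enhancers, and in young cortex many neuronal enhancers carry sites for proneural basic helix-loop-helix factors and for nuclear factor I (NFI) proteins. No contact map or expression was measured here, so the gene with the nearest start site is named as an address only.

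The sequences of 7 gene-desert peaks show the kinds of site counted further on. They are the 2 strongest with a match to the CTCF consensus and no near-identical copy, the 2 strongest with a proneural E-box, the strongest with an NFI half-site, the strongest with a full NFI palindrome, and the strongest more than 1000 kb from a coding start. All are read from the GRCm38.p6 reference, 5′ to 3′ on the plus strand, each over the whole peak, and capitals mark the match. The 2 CTCF matches lie on opposite strands.
Clvs1 CTCF peak, chr4:9135881-9136080: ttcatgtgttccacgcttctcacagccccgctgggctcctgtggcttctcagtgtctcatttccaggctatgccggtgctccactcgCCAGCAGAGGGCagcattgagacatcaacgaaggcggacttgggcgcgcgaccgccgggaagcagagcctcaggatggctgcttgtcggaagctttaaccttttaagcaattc
Ccnh CTCF peak, chr13:84758621-84758820: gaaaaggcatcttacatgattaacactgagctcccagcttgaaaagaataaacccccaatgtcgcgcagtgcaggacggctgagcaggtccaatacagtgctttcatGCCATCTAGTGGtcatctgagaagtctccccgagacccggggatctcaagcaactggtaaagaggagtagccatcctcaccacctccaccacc
Sec61b proneural peak, chr4:47608781-47608980: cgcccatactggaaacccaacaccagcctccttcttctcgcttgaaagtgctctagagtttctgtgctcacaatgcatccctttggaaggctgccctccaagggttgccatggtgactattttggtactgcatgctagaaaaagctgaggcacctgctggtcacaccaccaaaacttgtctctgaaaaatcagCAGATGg
Atp23 proneural peak, chr10:126511601-126511820: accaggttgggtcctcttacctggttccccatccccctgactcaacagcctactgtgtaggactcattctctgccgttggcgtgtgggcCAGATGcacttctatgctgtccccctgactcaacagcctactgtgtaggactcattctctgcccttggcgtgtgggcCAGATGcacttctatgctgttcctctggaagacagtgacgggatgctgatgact
Klf12 NFI half-site peak, chr14:100459221-100459420: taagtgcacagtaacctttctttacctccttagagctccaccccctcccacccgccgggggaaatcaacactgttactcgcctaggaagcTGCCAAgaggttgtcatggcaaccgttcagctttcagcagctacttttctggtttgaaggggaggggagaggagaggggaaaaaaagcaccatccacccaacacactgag
Dsel NFI palindrome peak, chr1:113297941-113298120: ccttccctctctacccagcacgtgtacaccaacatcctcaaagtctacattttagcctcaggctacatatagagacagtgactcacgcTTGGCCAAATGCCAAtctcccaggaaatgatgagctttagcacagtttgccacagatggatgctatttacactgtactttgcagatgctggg
Cdh20 far peak, chr1:102628161-102628320: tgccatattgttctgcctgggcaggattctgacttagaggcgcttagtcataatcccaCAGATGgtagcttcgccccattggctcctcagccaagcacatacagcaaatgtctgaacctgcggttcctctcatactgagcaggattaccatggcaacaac

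Gene-desert sequence was sparse in accessible elements. It made up 747 Mb, or 28.2% of the 2648 Mb genome, and held 7.03 shared peaks per Mb, against 24.0 per Mb in the rest of the genome, 3.41-fold fewer. The larger peak lists gave 14.2 per Mb and the stronger 50% of peaks 1.66 per Mb in the deserts. The peaks themselves covered 0.983 Mb, which is 0.132% of the desert sequence. The larger set of positions whose cut rate had a false discovery rate (FDR) under 0.05 gave the same picture. It covered 0.452% of the deserts in replicate 1 and 0.528% in replicate 2, against 1.42% and 1.62% of the rest of the genome.

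All 19 autosomes had fewer shared peaks per Mb in desert sequence than outside it. Autosomal deserts held 8.07 peaks per Mb, against 25.3 per Mb in the rest of the autosomes, 3.13-fold fewer. The sparsest autosomal deserts were those of chromosome 14, with 6.40 per Mb, and the densest those of chromosome 7, with 10.5 per Mb. The X chromosome had the emptiest deserts of those the female animals carry, with 121 peaks at 2.19 per Mb, against 10.5 per Mb in the rest of the X. Median signal in X deserts was 0.443 in replicate 1 and 0.523 in replicate 2, below the median of every autosome. The Y chromosome, which these animals lack, held 2 of the peaks.

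Accessibility thinned out steadily with distance from the nearest coding start. Over sequence between genes, density was 19.4 shared peaks per Mb at 1 to 10 kb, 16.99 at 10 to 50 kb and 13.7 at 50 to 100 kb. Inside the deserts it was 9.90 per Mb at 100 to 200 kb, 7.204 at 200 to 500 kb, 4.64 at 500 to 1000 kb and 2.78 beyond 1000 kb. The boundary at 100 kb therefore falls on a slope and not on a step. Median signal went the same way, with 1.04 in replicate 1 and 1.34 in replicate 2 in the bin of 1 to 10 kb, and 0.453 and 0.504 beyond 1000 kb. Inside the deserts, the bins fell in the same order in both libraries.

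**Figure D1:**
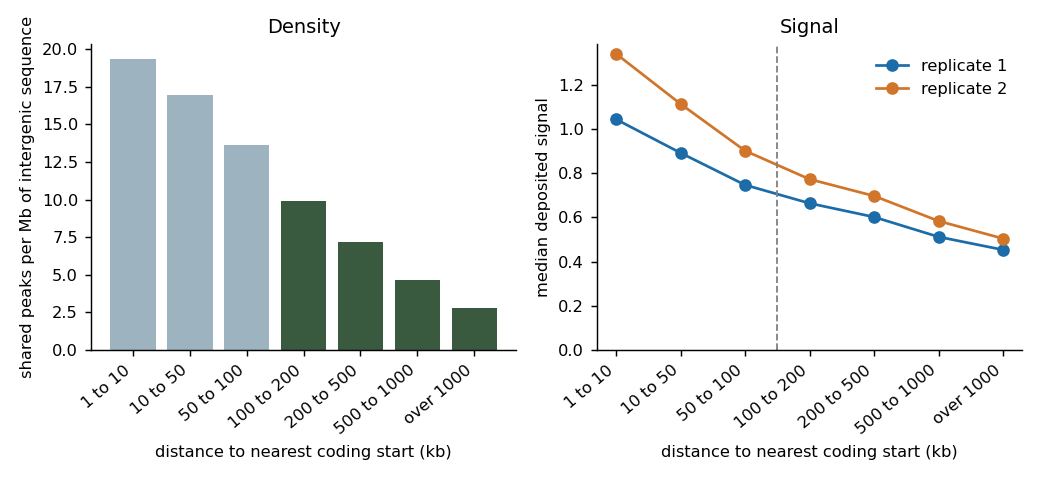
Shared peaks between genes by distance to the nearest coding start in kb, with peaks per Mb of intergenic sequence as bars (left; dark bars are the gene-desert bins) and median deposited signal of each library as points (right; dashed line at 100 kb). Density drops in every bin, to 2.78 per Mb beyond 1000 kb, and the median signal of both libraries drops with it.

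The peaks lay far out, with a median distance of 236 kb, quartiles of 151 kb and 414 kb, and a largest distance of 2370 kb. More than 200 kb from a coding start lay 3099 of them (59.0%), more than 500 kb 941, more than 1000 kb 190 (3.62%) and more than 2000 kb 13. Many were closer to noncoding genes and pseudogenes, for which the rule set no distance: 862 had some annotated gene start within 10 kb and 181 (3.45%) within 1 kb. The nearest annotated start of any kind was a processed pseudogene for 36.5% and a long intergenic noncoding RNA for 30.1%. Requiring the whole peak to lie outside genes and 100 kb from the start of any gene left 1139 peaks.

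The peaks nearest to the threshold had overlapping signals on both sides. Just inside it, a peak 100.006 kb from Snx7 reached 0.540 in replicate 1 and 0.440 in replicate 2, one near Sntn had 0.277 and 0.462, and one near Cd180 had 0.754 and 0.887. Just outside it, a peak near Anxa5 had 0.422 and 0.538, one near Irx4 had 0.837 and 1.34, and one near Vwc2 had 0.623 and 0.675.

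Gene-desert peaks were the weakest class of shared peak in both libraries. The signal is the authors' 1 value per peak, scaled by library. Its median was 0.609 in replicate 1 and 0.705 in replicate 2 for gene-desert peaks, against 0.685 and 0.819 for peaks inside genes but just as far from coding starts, 0.892 and 1.11 for intergenic peaks at 1 to 100 kb, and 1.53 and 2.21 for peaks within 1 kb of a coding start. On the log2 scale the median was lower than that of nearer intergenic peaks by -0.55 in replicate 1 and -0.66 in replicate 2, a mean of -0.61 ± 0.08 (SD, n = 2 libraries), or 1.52-fold. The difference from far peaks inside genes was smaller, at -0.19 ± 0.03, and that from promoter peaks larger, at -1.49 ± 0.22. Among the stronger 50% of each library's peaks, a selection on the signal itself, the difference from nearer intergenic peaks was -0.13. Each difference had the same sign in both libraries and was several times its SD. An exact permutation test that flips signs over 2 libraries cannot go below a two-sided p of 0.5, so none is given.

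**Figure D2:**
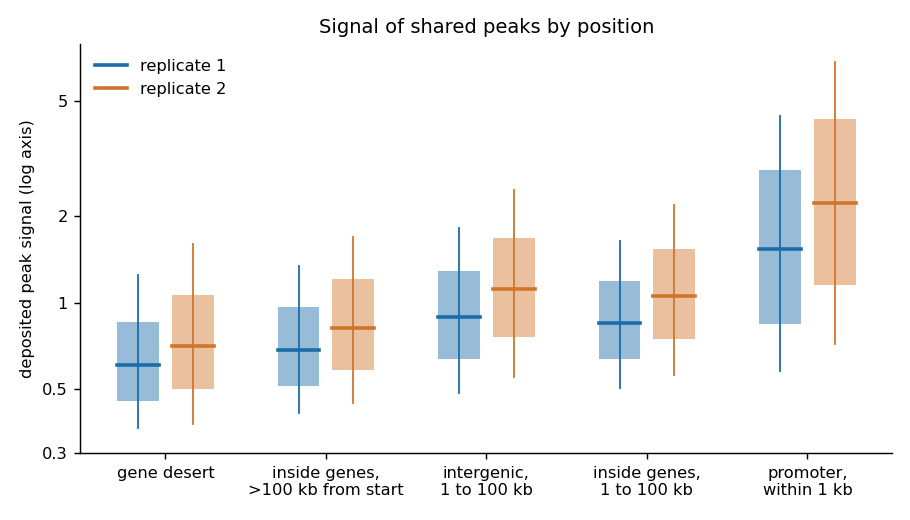
Deposited signal of shared peaks in each library on a log axis, by position class. Bars span the quartiles, thick lines are medians and thin lines reach the 10th and 90th percentiles over peaks. Gene-desert peaks have the lowest medians, 0.609 in replicate 1 and 0.705 in replicate 2.

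Weak signal also means few cuts behind each value. The signal of each library moves in fixed steps. The median gene-desert peak stood at 88 steps in replicate 1 and 93 in replicate 2. If 1 step is 1 cut, which the sources used here do not state, the counting error would be 10.7% and 10.4% of the signal. For nearer intergenic peaks the medians were 129 and 147 steps.

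The classes nevertheless overlapped widely, and the deserts held very strong peaks too. The middle 80% of gene-desert peaks spanned 0.367 to 1.25 in replicate 1 and 0.379 to 1.60 in replicate 2, against 0.484 to 1.82 and 0.553 to 2.45 for nearer intergenic peaks. Of the gene-desert peaks, 56.0% were in the weakest and 4.93% in the strongest of 4 equal signal groups of all shared peaks, against 24.9% and 15.7% of the nearer intergenic peaks.

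Among the strongest 10 gene-desert peaks, the ones at the very top are uncertain. The strongest, near Gm8797, reached 12.4 in replicate 1 and 15.7 in replicate 2, and the next, near Gm31371, had 11.4 and 16.3. Both have 4 near-identical copies elsewhere in the reference, matching over at least 95% of their length. So does the sixth, near the vomeronasal receptor gene Vmn1r238. Reads from these places may be hard to tell apart, and how they were placed was not examined. Such copies were found for 43 of the 5252 peaks (0.819%), 3 of them among the strongest 10.

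The other strong peaks had no near-identical copy. The peak at chr15:68363341-68363540, upstream of the zinc-finger gene Zfat, had 5.13 in replicate 1 and 9.26 in replicate 2. A peak upstream of Smim15 had 5.14 and 8.22, and one 237 kb upstream of Myt1l, a zinc-finger gene of postmitotic neurons, had 5.33 and 7.60. These lay far above the 90th percentile of the class in both libraries, with 4 to 7 footprints each. Abutting peaks downstream of Pcmtd1 had 4.53 and 6.77 in one and 3.45 and 7.61 in the other, and may belong to 1 element. The peak upstream of Clvs1, a vesicle-trafficking gene, printed above with its CTCF match, had 4.05 and 5.26. A peak upstream of Topaz1 had 3.06 and 6.46, with the highest GC content of the strongest 10, at 76%.

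Strong peaks also occurred at the largest distances. The strongest beyond 1000 kb, printed above, lay 2140 kb upstream of Cdh20, which encodes a cadherin, with 3.23 in replicate 1 and 3.52 in replicate 2. Next came a pair of overlapping peaks 1263 kb upstream of Klhl29, with 1.67 and 2.33 in the wider one and 1.65 and 2.04 in the narrower. The 5 peaks farthest from any coding start were mostly weak. The farthest, 2370 kb from the protocadherin gene Pcdh20, had 0.429 and 0.553, and 3 others, near Celf4, Pcdh9 and Aga, had at most 0.5003 in either library. The exception was a peak 2195 kb upstream of Pik3c3, a lipid kinase gene, with 1.47 and 1.69 and 5 footprints in each library.

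Gene-desert peaks were found in the other animal somewhat less often than other peaks. Of the 6642 peaks of replicate 1 in desert sequence, 5252 were also found in replicate 2 (79.1%, with a 95% Wilson interval of 78.1 to 80.0), against 85.4% of its other peaks and 84.7% of all. Of the 8029 of replicate 2, 5258 were also found in replicate 1 (65.5%, 64.4 to 66.5), against 72.9% of its other peaks and 72.1% of all. Sharing was thus lower in deserts than over other peaks by a like amount whichever library was the starting point. Peaks inside genes but just as far from coding starts came close to the deserts. Their shares were 81.3% in replicate 1 (79.9 to 82.7) and 66.2% in replicate 2 (64.7 to 67.7), with intervals that overlapped those of the deserts. Desert peaks found in 1 library only were weak, with a median signal of 0.401 among the 1390 of replicate 1 and 0.409 among the 2771 of replicate 2. Over all peaks found in 1 library only the medians were 0.512 and 0.599, also below those of shared peaks. Of the desert peaks in 1 library only, 69.5% and 66.8% overlapped the larger, more permissive peak list of the other library. Over all such peaks the shares were 64.5% and 66.7%. The intervals cover counting error only.

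Between the animals, the deposited signal of shared gene-desert peaks had a median ratio nearer to 1 than that of the other classes, but it varied more from peak to peak. The median log2 ratio of replicate 1 over replicate 2 was -0.21 (SD over peaks 0.38), against -0.32 (SD 0.34) for nearer intergenic peaks and -0.37 (SD 0.35) for all shared peaks. Counted in signal steps it was -0.08, against -0.19 for nearer intergenic peaks, so the size depends on the authors' scaling, and among the stronger 50% of peaks it was -0.33. Where a replicate 1 peak overlapped several in replicate 2, the highest was taken, which favours replicate 2. The log2 signals had a Pearson correlation of 0.884 over the 5252 gene-desert peaks, the lowest of the 5 classes, against 0.921 for nearer intergenic peaks and 0.953 for all shared peaks, given as a description, since the peaks share their libraries.

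Replicate 2 was higher at 3755 gene-desert peaks (71.5%, against 84.9% of all shared peaks). It was higher by over 2-fold at 90 (1.71%, against 2.61% of all), and replicate 1 was higher by over 2-fold at 11 (0.209%, against 0.0472% of all). After centring on the median of all shared peaks the split turned round, with replicate 1 higher at 89 (1.69%, against 0.541% of all) and replicate 2 higher at 5 (0.0952%, against 0.126% of all). Which library leads among the wide gaps therefore depends on the scaling. The widest gaps toward replicate 1 were a peak upstream of Klhl1, with 0.553 in replicate 1 and 0.220 in replicate 2, and one upstream of the adhesion gene Chl1, with 0.906 and 0.379. The widest toward replicate 2 were one upstream of the kinase gene Prkcq, with 0.408 in replicate 1 and 1.13 in replicate 2, and one downstream of Papss1, with 0.401 and 1.11.

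Most gene-desert peaks carried footprints, short stretches protected from cutting. At least 1 footprint of the same library lay in 89.1% of them in replicate 1 and 88.2% in replicate 2, against 94.3% and 94.2% of nearer intergenic peaks and 92.0% and 91.0% of all shared peaks. Both libraries had one in 81.0%, against 90.5% of nearer intergenic peaks and 86.9% of all shared peaks. The mean number per peak was 2.09 in replicate 1 and 2.03 in replicate 2, against 2.66 and 2.64 over all shared peaks. A peak upstream of the corepressor gene Irf2bp2 had 10 in replicate 1, the most there, and 7 in replicate 2, where the most in any gene-desert peak was 9.

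The lower share than at nearer intergenic peaks went along with the weaker signal. In the weakest signal group, 82.5% of gene-desert peaks held a footprint in replicate 1 and 80.7% in replicate 2, against 83.9% and 83.9% of nearer intergenic peaks. In the next group the shares were 96.1% and 96.6%, against 95.7% and 95.5%, and in the one above it 99.1% and 98.8%, against 98.7% and 98.4%. All 259 gene-desert peaks in the strongest group held one in each library. At matched signal these 2 classes therefore differed by at most a few percentage points and in no constant direction. Promoter peaks did not follow this pattern. Their shares were 89.7% in replicate 1 and 87.4% in replicate 2, close to the deserts despite stronger signal, and 58.2% and 51.0% in the weakest group.

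In sequence, the peaks differed from the desert around them. Their width was 186 bp at the median and 21 to 778 bp in range. Desert sequence as a whole was poor in GC, at 39.1%, against 41.7% for the genome, and rich in repeats, at 44.7% of bases against 36.4%. Windows of 200 bp on the gene-desert peaks had a median GC content of 46.5%, against 41.5% in windows 2 kb to either side, 50% at nearer intergenic peaks and 63.5% at promoter peaks. Repeats took up only 8.40% of their bases on average, close to the 9.03% at nearer intergenic peaks, and 2572 of the windows (49.0%) held no repeat base. The windows held 2.91 CpG sites on average, against 4.44 at nearer intergenic peaks.

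CTCF sites were scarcer in the deserts than at nearer intergenic peaks. The search covered 26 motifs on both strands of the 200 bp windows, and a match is a description of the letters, not evidence that the factor binds. A match to the CTCF consensus was present in 287 gene-desert peaks (5.46%, Wilson interval 4.88 to 6.11), against 14.0% (13.4 to 14.6) of nearer intergenic peaks and 7.68% of all shared peaks. The share in far peaks inside genes was 5.14%, like that in the deserts, and in promoter peaks 1.91%. Windows 2 kb beside the gene-desert peaks held one in 0.0666%, so the consensus was still 82.0-fold more frequent in the peaks than beside them. On each library's own peaks, the difference from nearer intergenic peaks was -7.98 percentage points in replicate 1 and -7.43 in replicate 2, a mean of -7.70 ± 0.39 (SD, n = 2). The share in gene-desert peaks was 3.55% with the larger peak lists and 11.2% with the stronger 50% of peaks.

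Against nearer intergenic peaks, the scarcity of CTCF held at matched signal and at matched GC content. From the weakest to the strongest signal group, 2.62%, 6.39%, 11.5% and 14.7% of gene-desert peaks had a match, against 7.10%, 11.99%, 18.4% and 19.99% of nearer intergenic peaks. The intervals did not overlap in the 3 weaker groups, and in the strongest they did, at 10.9 to 19.5 against 18.2 to 21.9. Far peaks inside genes had 2.93%, 5.36%, 7.41% and 12.9% in the same order. Their intervals overlapped those of the gene-desert peaks in every group, and in the 3 stronger groups gene-desert peaks had the higher share. In windows under 40% GC the gene-desert share was 6.04%, against 21.1% of nearer intergenic peaks, and in windows of at least 55% it was 4.36%, against 10.3%. By distance, the share was 16.6% at 1 to 10 kb, 14.8% at 10 to 50 kb and 9.54% at 50 to 100 kb, then 7.48% at 100 to 200 kb, 4.22% at 200 to 500 kb, 3.60% at 500 to 1000 kb and 4.21% beyond 1000 kb. The decline thus runs across the nearer intergenic peaks and levels off past 200 kb, where the last bin rests on 8 matches.

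The CTCF matches that were present lay mostly inside footprints. Of the 287 matches, 89.9% overlapped a footprint in replicate 1 and 89.9% in replicate 2, against 96.5% and 93.3% of those in nearer intergenic peaks. Footprints covered 12.4% and 11.2% of the bases of all gene-desert windows. A match counted if any of its bases overlapped, so the share of bases is not a like measure. Gene-desert peaks with a match had a median of 0.872 in replicate 1 and 1.08 in replicate 2, against 0.602 and 0.690 without one. That gap, 0.53 and 0.65 on the log2 scale, is about as large as the one between desert and nearer intergenic peaks. The matches fell on the plus strand 149 times and on the minus strand 138 times. They pointed toward the nearest coding start in 43.9% (38.3 to 49.7).

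The Ccnh peak printed above, 431 kb upstream of the cyclin H gene, shows a CTCF site at high signal, with 3.35 in replicate 1 and 4.63 in replicate 2 and 5 and 4 footprints. It also holds a proneural E-box, as does another strong CTCF peak downstream of Pik3c3, with 2.79 and 3.73.

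Proneural E-boxes and NFI half-sites were more frequent at gene-desert peaks than at nearer intergenic peaks. The E-box CAGATG, the preferred site of Neurog and Neurod factors, was present in 30.2% of gene-desert peaks (29.0 to 31.5), against 22.5% (21.7 to 23.3) of nearer intergenic peaks, 19.4% of all shared peaks and 14.6% of the flanking windows. The NFI half-site TTGGCA was present in 27.0% (25.8 to 28.2), against 18.97% (18.2 to 19.7), 17.7% of all shared peaks and 10.2% of flanks. Peaks inside genes but just as far from coding starts had shares like those of the deserts, 28.2% (26.5 to 29.97) for the E-box and 26.9% (25.2 to 28.6) for the NFI half-site, with overlapping intervals. On each library's own peaks the E-box was more frequent than at nearer intergenic peaks by 6.85 points in replicate 1 and 5.42 in replicate 2, and the NFI half-site by 7.99 and 7.42. Those differences averaged 6.13 ± 1.01 and 7.70 ± 0.40 points (SD, n = 2). Both motifs occurred together in 396 gene-desert peaks (7.54%), against 4.28% of nearer intergenic peaks.

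These differences also held within each of the 4 signal groups and every band of GC content examined. Across the signal groups the E-box share was 27.2% to 31.7% in gene-desert peaks, against 17.2% to 25.6% in nearer intergenic peaks, and the NFI half-site share 21.6% to 29.2%, against 13.7% to 23.1%. Across 5 bands of GC content the E-box share was 22.9% to 33.5%, against 18.4% to 24.2%, and the NFI half-site share 22.7% to 29.6%, against 15.9% to 20.3%. Both climbed with distance without a break, the E-box with 18.7% at 1 to 10 kb and 41.1% beyond 1000 kb, and the NFI half-site with 14.8% and 31.1%.

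**Figure D3:**
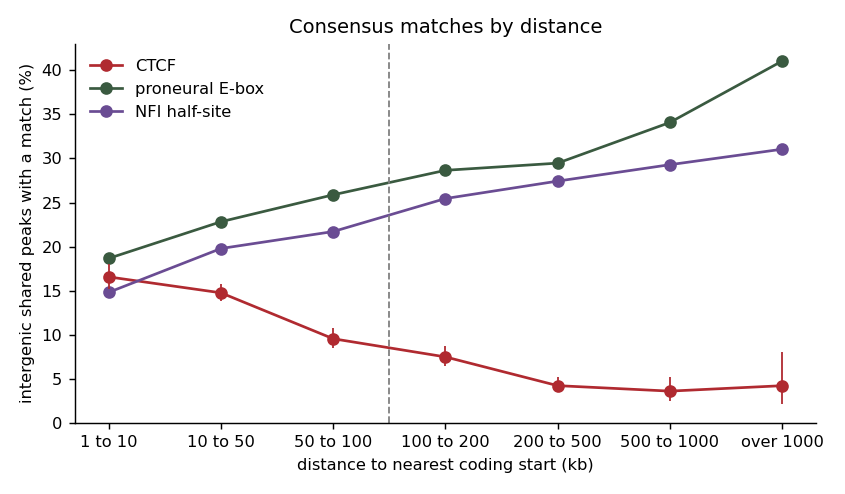
Share of intergenic shared peaks whose 200 bp window matches each consensus, by distance to the nearest coding start in kb. Error bars on CTCF are 95% Wilson intervals and the dashed line is at 100 kb. CTCF is at 16.6% in the nearest bin and 4.21% in the farthest, while the proneural E-box is at 18.7% and 41.1%.

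Unlike CTCF sites, these short motifs were mostly outside footprints. Of the E-box matches in gene-desert peaks, 31.98% overlapped a footprint in replicate 1 and 28.5% in replicate 2, and of the NFI half-sites 38.7% and 29.4%. In nearer intergenic peaks the shares were 34.3% and 29.5% for the E-box, and 39.7% and 32.7% for the NFI half-site. A match counted if any of its bases overlapped, so these shares cannot be set directly against the share of window bases in footprints. Peaks with an E-box were slightly weaker than those without, with medians of 0.588 in replicate 1 and 0.682 in replicate 2, against 0.616 and 0.713. For the NFI half-site the medians were 0.588 and 0.659, against 0.616 and 0.720.

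The strongest E-box peak, printed above, lies 134 kb downstream of Sec61b, a translocon subunit gene, on the side toward the activity-regulated receptor gene Nr4a3. It had 3.89 in replicate 1 and 4.80 in replicate 2. The peak near Atp23, with 4.35 and 3.73, holds 2 E-boxes. The strongest NFI half-site peak lies 175 kb upstream of Klf12, a Krüppel-like repressor gene, with 3.60 and 5.22. The full NFI palindrome, whose 2 arms can each hold the half-site, was found in only 7 gene-desert peaks (0.133%, against 0.118% of nearer intergenic peaks and 0.102% of all). The strongest of these lies 1433 kb from Dsel, with 1.03 and 1.80.

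Other motifs divided into groups. A second E-box, CAGCTG, was present in 20.5% of gene-desert peaks, against 17.3% of nearer intergenic peaks, 16.7% of all and 7.06% of flanks. The POU octamer ATGCAAAT was present in 2.76%, against 1.83%, with 1.61% of all and 1.82% of flanks. It was not higher in 2 of the 5 GC bands. The homeobox core TAATTA was present in 5.94%, against 3.93% and 3.20% of all, but in 6.81% of flanks, and below 40% GC it was less frequent in gene-desert peaks, at 9.37% against 11.8%. Its share fell as GC content rose in both classes. Far peaks inside genes had 2.55% for the POU octamer and 5.02% for TAATTA.

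SP, ETS and REST matches were rare in gene-desert peaks, as in far peaks inside genes, where SP was at 0.518% and ETS at 0.120%. The SP box GGGGCGGGG was present in 0.590% of gene-desert peaks, against 1.82% of nearer intergenic peaks, 14.8% of promoter peaks and 5.82% of all. The ETS site CCGGAAGT was present in 4 gene-desert peaks (0.0762%), against 0.454% of nearer intergenic peaks, 5.65% of promoter peaks and 2.13% of all. No REST match was found in the 5252 windows, which allows a share of up to 0.0731% by the Wilson interval, and 0.0177% of all shared peaks had one. None was found in the 11017 nearer intergenic peaks or the 2509 far peaks inside genes either.

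Several motifs were about as frequent at gene-desert peaks as at nearer intergenic peaks. The RFX site GTTGCCATG was present in 2.17% of gene-desert peaks and 2.27% of nearer intergenic peaks, with 1.83% of all and only 0.257% of flanks. Of its 123 matches in gene-desert peaks, 59.3% overlapped a footprint in each library, against 70.4% and 66.4% of those in nearer intergenic peaks. The RFX letters also occur in the Sec61b, Klf12 and Cdh20 peaks printed above. The AP-1 site TGACTCA was present in 5.06%, against 5.04%, with 3.93% of all and 3.32% of flanks. The SOX site AACAAAG was present in 4.74%, against 4.78%, with 3.79% of all and 6.25% of flanks. The intervals of these 2 classes overlapped for RFX, AP-1 and SOX, while promoter peaks had fewer of each, at 1.05%, 2.03% and 2.20%. The NFY box GATTGG, mostly at promoters, was present in 7.03%, against 7.23%, with 10.3% of all, and the MEF2 consensus in 3.88%, against 3.78%, with 3.08% of all.

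Of the remaining motifs, the TEAD site was more frequent and the MYC site less frequent than at nearer intergenic peaks, with intervals that did not overlap. The TEAD site CATTCCA was present in 4.84% of gene-desert peaks (4.29 to 5.45), against 3.56% (3.23 to 3.92) of nearer intergenic peaks and 3.16% of all, and the GATA site AGATAAG in 1.79%, against 1.43% and 1.23% of all, but in 2.75% of flanks. The MYC E-box CACGTG was present in 3.01% (2.58 to 3.51), against 3.92% (3.57 to 4.30) and 5.30% of all. In far peaks inside genes the TEAD site was present in 4.66% and the MYC site in 3.87%. The forkhead site TGTTTAC was present in 2.59%, against 2.27% and 2.07% of all, and the T-box site AGGTGTGA in 0.819%, against 0.563% and 0.541% of all. The PU.1 site GAGGAAGT of the microglial lineage was present in 1.41%, against 1.62% and 1.54% of all, and the ROR site TAGGTCA in 0.743%, against 1.13% and 0.924% of all. The CREB, YY1, NRF1 and EGR sites were scarcer here than over all shared peaks. So they were in far peaks inside genes, at 0.159%, 0.359%, 0.0797% and 0.120%. The CREB site TGACGTCA was present in 0.190%, against 0.608% and 1.34% of all, the YY1 site AAGATGGCG in 0.171%, against 0.490% and 0.971% of all, the NRF1 site in 0.0952%, against 0.254% and 0.690% of all, and the EGR site GCGTGGGCG in 0.0190%, against 0.191% and 0.444% of all.

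**Figure D4:**
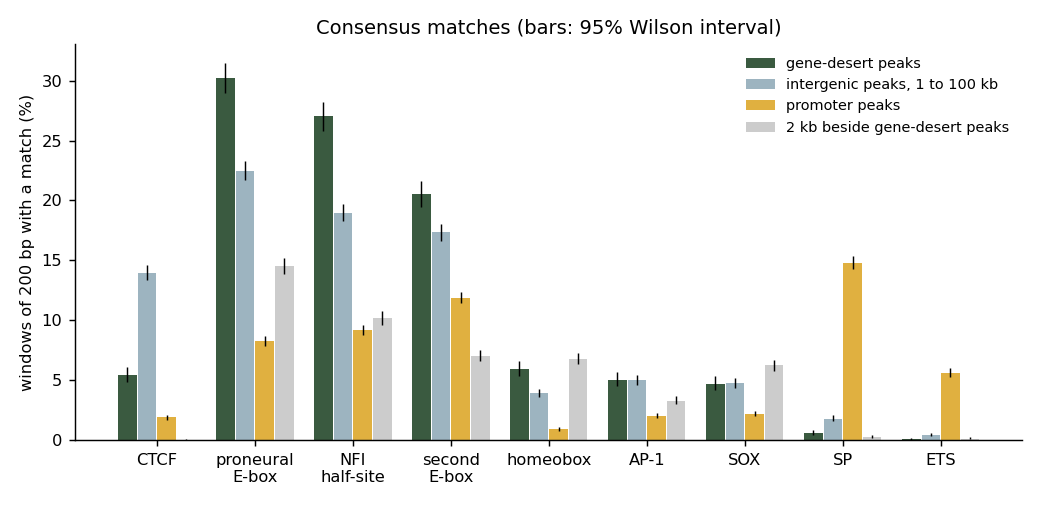
Share of 200 bp windows with a match to each consensus, for gene-desert peaks, intergenic peaks at 1 to 100 kb, promoter peaks and windows 2 kb beside the gene-desert peaks. Bars are shares of windows and lines 95% Wilson intervals. CTCF is lower in gene-desert peaks than at nearer intergenic peaks (5.46% against 14.0%), while the proneural E-box (30.2% against 22.5%) and NFI half-site (27.0% against 18.97%) are higher, and SP and ETS matches are mainly at promoters.

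The peaks were spread over many deserts but not evenly. A desert here is the space between neighbouring coding starts that holds sequence meeting the rule. Of 1861 deserts, 1179 (63.4%) held at least 1 gene-desert peak. Of the 202 with at least 1 Mb of such sequence, 185 held one, with a median density of 3.87 per Mb, quartiles of 2.45 and 6.58 and a maximum of 23.3. The 10 deserts with most peaks held 253 gene-desert peaks (4.82%). These figures count the deserts of the Y chromosome, which these females lack and which held 2 peaks over 56.3 Mb.

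The most densely populated large desert lay between Auts2, a neurodevelopmental gene, and Castor2, a gene of the arginine-sensing CASTOR family, with 30 peaks at 23.3 per Mb on chromosome 5. The desert between Sall1 and Tox3, genes of developmental transcription factors, held 24 at 21.8 per Mb. That between Agtr1b and Tbl1xr1, which encodes a subunit of the nuclear corepressor complex, held 29 at 20.2 per Mb. The desert between Slc4a3, an anion exchanger gene, and Epha4, an ephrin receptor gene, held 25 at 18.2 per Mb. The desert between the potassium channel gene Kcnj2 and Sox9, known for long-range enhancers and for its glial and cartilage roles, held 24 at 16.4 per Mb. All were several times the median density of large deserts.

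Size alone did not set the number. The desert between Celf4, a neuronal splicing factor gene, and Pik3c3 held the most, 31, but over 3.805 Mb, at 8.15 per Mb. The largest, between Olfm4 and the protocadherin gene Pcdh17, held 21 over 4.14 Mb, at 5.08 per Mb. The next largest, between the protocadherin genes Pcdh20 and Pcdh9, held 12 over 4.05 Mb, at 2.96 per Mb. The desert between the contactin-associated gene Cntnap5b and Cdh20 held 11 over 3.904 Mb, at 2.82 per Mb, among them the strong far peak printed above. Several of the 17 large deserts with none lay on the Y chromosome, among them the largest, with 2.06 Mb. The largest of the 17 outside the sex chromosomes lay between Pot1a, a telomere protein gene, and Grm8, a glutamate receptor gene, with 1.32 Mb.

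**Figure D5:**
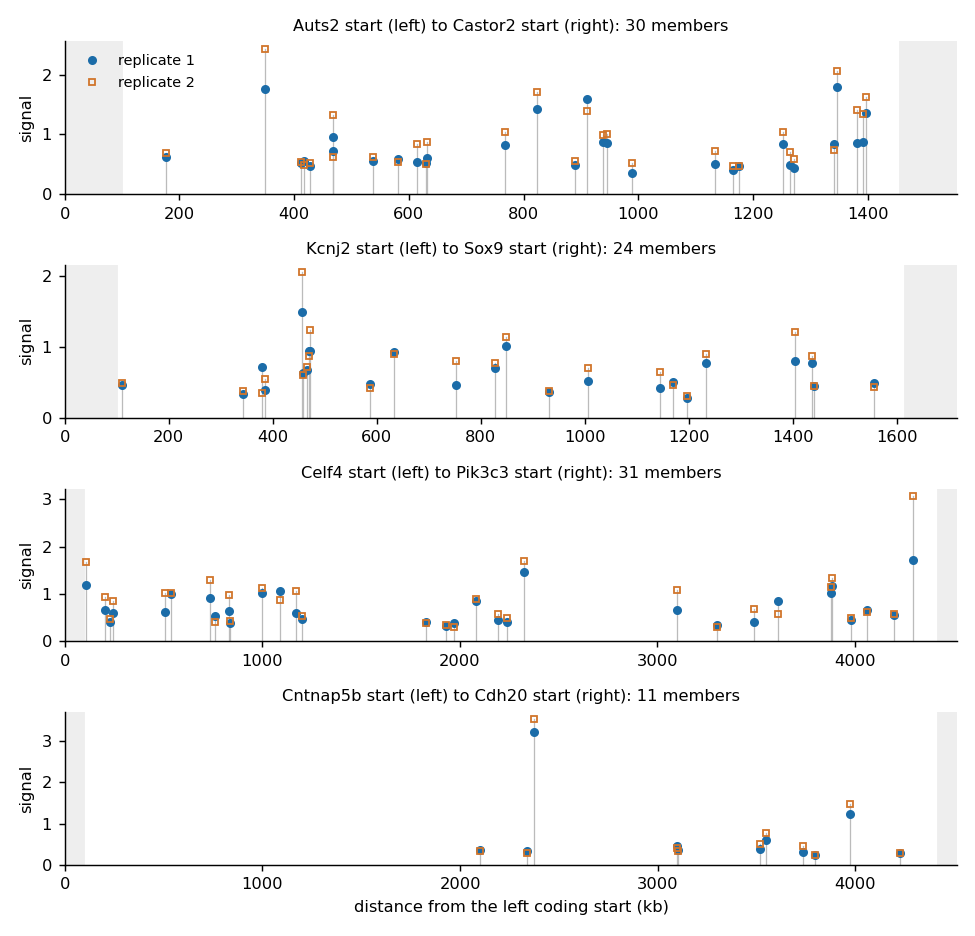
Gene-desert peaks in 4 deserts, by distance in kb from the left coding start (x axis) and deposited signal (y axis), with filled circles for replicate 1 and open squares for replicate 2. Grey bands are the 100 kb next to each start, which the rule leaves out, and sequence inside noncoding genes is left out as well. The Auts2 to Castor2 and Kcnj2 to Sox9 deserts are filled along much of their length with 30 and 24 peaks, while the Cntnap5b to Cdh20 desert has 11, all in its middle and on the Cdh20 side.

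By nearest coding start, 2931 genes had desert sequence assigned to them and 1631 of these (55.6%) had at least 1 gene-desert peak. Tbl1xr1 had the most, 25, at 17.1 per Mb of its desert sequence. Celf4 followed with 20, Zfp608, a zinc-finger gene, with 19 and Castor2 with 17. The genes Celf2, Galc, Got2, Slc4a3 and Tox3 had 15 each. Epha4, Kcnj2, Khdrbs3, Pik3c3, Sox9, Tmem182, Xylt1 and Zfat had 14 each. The group mixes RNA-binding proteins of neurons (Celf2, Celf4, Khdrbs3) and regulators of transcription (Tbl1xr1, Zfp608, Tox3, Sox9, Zfat) with enzymes such as Galc, a lysosomal galactosidase, and Got2, a mitochondrial aminotransferase.

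The order of these genes depends on how deserts and shared peaks are defined. With whole peaks far from the starts of genes of every kind, Tbl1xr1 had 4 peaks, Celf4 5, Castor2 2, Celf2 4, Galc 1, Got2 7, Slc4a3 4, Pik3c3 5, and Zfp608 and Zfat none, while Tox3 had 14 and Sox9 11. On the peaks of 1 library alone, replicate 1 had 22 nearest to Zfp608, 25 to Celf2 and 19 to Pik3c3, and replicate 2 had 29, 21 and 29. On the same basis Galc had 16 in replicate 1 and 23 in replicate 2, and Zfat 14 and 23.

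Peak strength varied among these genes. The 25 peaks nearest to Tbl1xr1 had a median of 0.823 in replicate 1 and 0.857 in replicate 2, above the class medians. The 15 nearest to Got2 had 0.457 and 0.538, below them, as had the 14 nearest to Epha4, with 0.460 and 0.504. Among genes with at least 5 peaks, the highest density was at Hivep2, a zinc-finger gene, with 5 peaks in 0.0622 Mb, 80.3 per Mb, and medians of 1.28 and 1.95. The exchange factor genes Rapgef5 and Prex1 had 6 each, at 75.5 and 75.5 per Mb. Opa1, a mitochondrial fusion gene, had 6 at 64.1 per Mb, and Shq1 5 at 61.4 per Mb. These densities rest on short stretches of desert sequence.

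Of the gene lists examined, cortical transcription factors had 25 of 34 genes next to desert sequence with at least 1 gene-desert peak, 73.5%, against 55.6% of all 2931 genes. Summed over the list the density was 7.01 per Mb, against 7.03 per Mb over all genes and 8.07 per Mb in autosomal deserts. The median density per gene was 5.67 per Mb, against 3.44 per Mb over all genes. Here and for the lists below, the figures over all genes include the Y chromosome, which these females lack. Its deserts span 56.3 Mb and held 2 peaks. The list's genes had a median of 0.315 Mb of desert sequence, against 0.115 Mb over all. Arid1b, a chromatin remodeller gene, and Tshz3, a zinc-finger gene of deep-layer neurons, had 9 each. Nr2f2 and the SMAD-interacting repressor gene Zeb2 had 8 each, and the POU gene Pou3f3 had 7. The 7 nearest to Pou3f3 had a median signal of 0.408 in replicate 1 and 0.728 in replicate 2, while the 6 nearest to Tcf4, chosen after its values were seen, had 1.34 and 1.42. The genes Tbr1, Neurod6, Nfia, Sox4 and Foxp2 were among the 9 with none, mostly over little desert sequence.

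Neural adhesion genes sat in the largest deserts, with a median of 1.09 Mb of desert sequence per gene, against 0.115 Mb over all genes. A gene-desert peak was present for 40 of 47, 85.1%, against 55.6% of all genes. The summed density was 3.67 per Mb, below the 7.03 per Mb over all, but the median density per gene, 3.803 per Mb, was slightly above the 3.44 per Mb over all genes. Density falls with distance everywhere, so list density and desert size cannot be told apart here. The cadherin gene Cdh8 and Flrt2, a gene for a fibronectin leucine-rich transmembrane protein, had 13 each, and Cdh20 and Pcdh9 10 each. Signal was low, with medians of 0.457 in replicate 1 and 0.478 in replicate 2 at Cdh8, and 0.436 and 0.402 at Flrt2. Cntnap2 and Lrrtm3 had none, although Lrrtm3 has 0.556 Mb of desert sequence.

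Glial genes had a peak for 9 of 10 genes, against 55.6% of all genes, at 13.3 per Mb over 2.94 Mb, against 7.03 per Mb over all. Of the 39 peaks of this list, Sox9 had 14, the stem and glial factor gene Sox2 9, at 23.1 per Mb, and the astrocyte connexin gene Gja1 6. Sox2 peaks had medians of 0.706 in replicate 1 and 0.834 in replicate 2. Activity-regulated genes had a peak for 6 of 8, or 75%, at 10.2 per Mb, with 8 at the activin subunit gene Inhba and 3 each at the nuclear receptor genes Nr4a2 and Nr4a3. Vascular and immune genes had one for 3 of 5, a share near the 55.6% over all genes, at 18.4 per Mb over 0.544 Mb, with 5 at Runx1 and 4 at the endothelial receptor gene Kdr. Median desert sequence per gene was 0.190 Mb for glial, 0.0802 Mb for activity-regulated and 0.0562 Mb for vascular and immune genes, against 0.115 Mb over all. For these lists and the next, as for the adhesion genes, list density and desert size cannot be told apart. In whole tissue, fewer cells of a type and less accessibility per cell cannot be told apart.

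Among regulators of other body regions, 18 of 27 genes next to desert sequence had a gene-desert peak, 66.7%, against 55.6% of all genes, at 10.5 per Mb, against 7.03 per Mb over all. Their median desert sequence was 0.195 Mb per gene, against 0.115 Mb. With whole peaks far from the starts of genes of every kind, the counts with a peak were 10 cortical transcription factors, 24 adhesion genes, 2 glial genes, 2 activity-regulated genes, 0 vascular and immune genes and 2 regulators of other regions. Sall1 had 12, Foxa2, a floor plate and endoderm factor gene, 8, and Irx5 and Tbx3 6 each. The 6 at Tbx3, a T-box gene of limb and heart, had medians of 0.796 in replicate 1 and 1.05 in replicate 2. Peaks near a gene say nothing of whether it is expressed in cortex. At start sites the tissue looked as labelled: 5 of 9 cortex and forebrain markers and 4 of 5 neuron markers had a peak in both libraries, against 0 of 6 markers of other brain regions and 0 of 4 of blood and muscle. Some markers of glia and of vessels were open too, with 2 of 4 for astrocytes, 3 of 4 for the oligodendrocyte lineage, 1 of 4 for microglia and 2 of 4 for vessels.

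Most gene-desert peaks stood alone. Joining peaks less than 20 kb apart gave 4157 groups, of which 3326 were single peaks (63.3% of the members), and 831 runs of at least 2. Only 10 runs held 5 or more. The largest, of 6 peaks over 36.3 kb at chr1:89171272-89207580 near Sh3bp4, had signals with medians of 0.792 in replicate 1 and 0.955 in replicate 2. A run of 5 near Hivep2, over 32.8 kb, had medians of 1.28 and 1.95, and one of 5 near Kcnj2, over 15.2 kb, had 0.934 and 0.864, with 2 CTCF matches. Runs of 5 near Lmx1a and Cmpk2 had 1.07 and 1.13, and 0.706 and 0.940. Neighbouring peaks within a run may belong to 1 element: 23 pairs overlapped and 289 lay within 1 kb of each other.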

How the data were processed

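DNase-seq was measured in 2 libraries, and depth was read only from the signal steps. According to descriptions deposited beside the files, the authors made every list from the filtered alignments of 1 library on mm10, without pooling replicates. Aligner, callers and thresholds are not given in the sources used here. Signal as deposited by the authors is 1 value per peak, and all values were whole multiples (within 0.01) of a library's step (0.00692 for replicate 1, 0.00758 for replicate 2). The deposited FDR values are under 0.05 at every listed position. The deposited footprint lists held 0.01 throughout in place of a score, so only positions were used.

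From these files, peaks were compared by an overlap of 1 bp with Python 3.11.15, numpy 2.4.6, pandas 2.3.3 and scipy 1.17.1, and sorted by midpoint into 5 classes with GENCODE M21 on GRCm38.p6, whose chromosome names and lengths were compared with the files. Motifs, GC content and repeats (lower-case bases) were read in 200 bp windows from this reference, not from the CAST/EiJ copy that the animals also carry. Near-identical copies were sought with minimap2 2.31-r1302. No test over the 2 libraries was run, since an exact one cannot go below a p of 0.5. Shares have 95% Wilson intervals over peaks and differences an SD over 2 libraries. The scripts were tested on simulated data.

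The members, the 26 motifs and the 6 gene lists (216 genes) were chosen with earlier results of these data known. Named peaks were the 10 strongest, 5 farthest, 3 of widest gap each way (2 of them in the text), 3 on each side of the threshold and that with most footprints. Named genes were those with most peaks (12, with ties 17), the 5 densest and the leading 3 of each list, and the 5 largest runs. Other names were chosen after their values were seen. Intervals cover counting error only. Some results are not reported here.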

Additional observations from a re-analysis of the deposited data

How the results depend on the processing

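No value recomputed here changed sign, but centring turned round the split of replicate gaps over 2-fold, to 89 peaks higher in replicate 1 and 5 in replicate 2, against 11 and 90 uncentred. Main values were 5252 peaks, 7.03 per Mb, 72.3% found in the other library, a log2 signal difference from nearer intergenic peaks of -0.61, a log2 replicate ratio of -0.21, 88.7% with a footprint (mean of both libraries), 5.46% with a CTCF match and 8.40% repeats. The larger peak lists gave 10605 peaks, 14.2 per Mb, a ratio of -0.16, 71.5% with a footprint, 3.55% with CTCF and 9.13% repeats. The stronger 50% of peaks gave 1240 peaks, 1.66 per Mb, a signal difference of -0.13, a ratio of -0.33, 99.1% with a footprint, 11.2% with CTCF and 7.64% repeats. A distance of 50 kb gave 8.37 per Mb, -0.23, 89.7% and 6.81% for density, ratio, footprints and CTCF. A distance of 200 kb gave 3099 peaks, -0.19, 87.6% and 4.07%. Whole peaks far from all gene starts gave 1139 peaks, -0.18, 87.5% and 4.30%. A reciprocal overlap of 50% gave 60.1% found in the other library, 92.3% with a footprint and 6.43% with CTCF. The log2 signal ratio counted in steps was -0.081. Each library alone gave 6642 to 8029 peaks, 8.89 to 10.7 per Mb, 65.5% to 79.1% found in the other, signal differences of -0.68 to -0.58, 80.9% to 84.8% with a footprint, 4.15% to 4.85% with CTCF and 8.72% to 8.99% repeats.

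The differences in motif share from nearer intergenic peaks, added after seeing the data, were -8.52 points for CTCF, 7.73 for the proneural E-box and 8.05 for the NFI half-site. CTCF was at -6.75 with the larger lists, -7.13 with the stronger 50%, -7.46 with whole peaks far from all gene starts, and -7.98 to -7.43 in each library alone. The E-box was at 5.63 with the larger lists, 5.48 in 100 bp windows and 5.42 to 6.85 in each library alone. The NFI half-site was at 6.90 with the larger lists, 7.13 beyond 50 kb, 6.36 with whole peaks far from all gene starts, 7.02 and 8.54 in windows of 100 bp and 400 bp, and 7.42 to 7.99 in each library alone. The cause of these shifts was not tested. Of the other 207 recomputed values, for named genes and lists, 138 stayed within the limits set and 69 moved. No paired analysis was possible because the 2 libraries form 1 group. The small number of cuts per peak limits what can be said of any single weak peak.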
